A study of Mus musculus with 113 samples.

Results

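10 genes of the Polycomb repressive complexes were followed through neural differentiation of mouse embryonic stem cells (mESCs). They were chosen by symbol, as the rows Ezh2, Ezh1, Eed, Suz12, Jarid2, Rnf2, Bmi1, Cbx2, Cbx7 and Cbx8 of the 4 deposited gene tables. All 10 have a row in the 3 bulk tables, of 13541 genes for SFEB cell populations, 13738 for adherent monoculture and 23107 for E14 cells. In the table of single cells, which holds 11449 genes, 9 of the 10 have a row and Cbx8 has none. Over the 4 tables together there were 23739 gene symbols.

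R1 mESCs, a wild-type line, were differentiated in SFEB culture, where aggregates resembling embryoid bodies float in medium without serum, and, separately, as an adherent monoculture in serum-free medium. The SFEB populations form a first series of 14 samples from 0 to 142 h and a parallel series of 8 samples from 0 to 216 h, and 8 single cells were sequenced at each of the 8 times of the parallel series. The adherent culture was sampled 15 times from 0 to 216 h. By the paper's methods, cells of both cultures were replated onto coated dishes near 144 h, those of SFEB in a new medium. The 216 h samples, single cells included, come after this step. Whether those of 144 h were taken before it is not stated. The part of the replating in changes with time was not tested. E14 mESCs, wild type (WT) or Fyn knockout (KO), were sampled at day 0 and at day 4 of differentiation in 3 replicates each. The KO is 1 CRISPR/Cas9 clone, so that an effect of the deletion and a difference particular to that clone cannot be told apart. Each time point of the R1 cultures is 1 library, and nothing in the labels says that the E14 replicates came from separate cultures, so their p-values measure only the spread between these samples.

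Polycomb proteins keep developmental genes silent. Polycomb repressive complex 2 (PRC2) methylates lysine 27 of histone H3 through its catalytic subunits EZH2 or EZH1, which work only together with EED and SUZ12, while JARID2 is an accessory subunit that helps bring the complex to its targets. Polycomb repressive complex 1 (PRC1) ubiquitinates histone H2A through the E3 ligase RNF2 (RING1B) with a PCGF partner such as BMI1 (PCGF4), and in its canonical form carries 1 chromodomain protein of the CBX family, which reads the mark left by PRC2. CBX7 is known as the CBX protein of embryonic stem cells, and CBX2 and CBX8 are among those that replace it during lineage commitment.

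In SFEB populations Cbx2, Cbx8, Bmi1, Ezh2 and Rnf2 rose with time, whereas Jarid2, Cbx7, Eed, Suz12 and Ezh1 fell. Cbx2, Cbx8, Bmi1, Ezh2, Jarid2, Cbx7 and Eed moved the same way in the adherent culture with adjusted p-values below the threshold. In E14 cells Eed and Suz12 in WT and Eed and Ezh2 in KO were lower at day 4, and the other members did not pass the test.

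In NCBIM37, the mouse assembly that the R1 tables used under the name mm9, the genes lie on 7 chromosomes. Cbx2 (chr11:118884276-118892584, plus strand) and Cbx8 (chr11:118897619-118902283, minus strand) are neighbours separated by 5034 bases. Suz12 (chr11:79806608-79847625) and Ezh1 (chr11:101052429-101087777) are on the same chromosome. The others are Ezh2 (chr6:47480273-47545340), Eed (chr7:97103166-97129493), Jarid2 (chr13:44824843-45017012), Rnf2 (chr1:153316536-153347953), Bmi1 (chr2:18598645-18608256) and Cbx7 (chr15:79746237-79801549). Noncoding genes of GENCODE M1 overlap Ezh2, Suz12 and Jarid2, 1 in each case and on the opposite strand. The libraries do not mark strand, so that reads of these partners cannot be told apart from reads of the 3 genes where they overlap.

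Promoters of 4 genes are shown because they belong to partners whose RNAs moved in opposite directions: Ezh2 rose and Eed, its partner in PRC2, fell, and Cbx8 rose while its paralog Cbx7 fell. Each runs from 250 bases before the transcription start to 50 after it, 5′ to 3′ on the strand of the gene, in RefSeq on GRCm38.p6, a later build than that of the R1 tables. Capitals mark matches on either strand to CCAAT, the CCAAT box bound by NF-Y, and to TTTNNCGC, a core of sites for E2F factors.
Ezh2, chr6:47594981-47595280, minus strand: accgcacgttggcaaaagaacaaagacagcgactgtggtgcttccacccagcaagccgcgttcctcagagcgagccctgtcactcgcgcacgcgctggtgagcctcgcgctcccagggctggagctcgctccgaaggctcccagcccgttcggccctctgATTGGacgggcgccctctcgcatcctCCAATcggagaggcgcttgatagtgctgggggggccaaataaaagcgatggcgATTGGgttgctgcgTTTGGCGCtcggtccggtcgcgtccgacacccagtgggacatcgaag
Eed, chr7:89980927-89981226, minus strand: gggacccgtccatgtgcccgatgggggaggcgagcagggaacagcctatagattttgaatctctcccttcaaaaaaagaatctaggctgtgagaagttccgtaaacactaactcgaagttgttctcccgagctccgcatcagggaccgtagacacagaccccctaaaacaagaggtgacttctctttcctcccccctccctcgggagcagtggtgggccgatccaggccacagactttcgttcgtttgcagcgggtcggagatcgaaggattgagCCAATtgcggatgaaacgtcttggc
Cbx7, chr15:79932597-79932896, minus strand: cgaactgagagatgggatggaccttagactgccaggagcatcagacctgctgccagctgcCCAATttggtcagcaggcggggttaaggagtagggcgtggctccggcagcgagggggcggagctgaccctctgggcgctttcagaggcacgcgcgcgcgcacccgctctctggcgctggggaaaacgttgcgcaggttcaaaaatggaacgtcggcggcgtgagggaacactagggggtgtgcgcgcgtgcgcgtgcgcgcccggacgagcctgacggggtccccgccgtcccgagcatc
Cbx8, chr11:119040864-119041163, minus strand: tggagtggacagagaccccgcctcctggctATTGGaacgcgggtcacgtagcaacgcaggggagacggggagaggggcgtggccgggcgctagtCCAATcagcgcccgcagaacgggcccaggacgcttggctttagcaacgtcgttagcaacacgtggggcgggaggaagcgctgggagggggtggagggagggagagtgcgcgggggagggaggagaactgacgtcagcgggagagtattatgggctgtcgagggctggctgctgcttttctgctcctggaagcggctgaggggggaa

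The Ezh2 window holds 3 matches to CCAAT and 1 to TTTNNCGC, the latter beginning 3 bases past the start. The Eed and Cbx7 windows hold 1 CCAAT each and that of Cbx8 holds 2. Of all 32851 promoters in the table, 37.4% hold CCAAT and 5.17% hold TTTNNCGC. Promoters of 9 of the 10 genes were in the table, and of the other 5 that of Suz12 also holds TTTNNCGC. A search for CACGTG, the E-box, found 1 match in Cbx8 and 1 in Bmi1, against 7.15% of all promoters, and CCGGAAG, an ETS core, was found in none of the 9, against 8.86%. The 4 windows shown are rich in CpG, with an observed-to-expected ratio of 0.758 in Eed, 0.833 in Cbx8, 0.992 in Cbx7 and slightly more in Ezh2, against a median of 0.384 over all promoters.

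Expression is given in FPKM, sequenced fragments scaled to transcript length and library size, so that levels of different genes can be set side by side. By the median over the 22 SFEB populations the order was Ezh2 (58.8 FPKM), Suz12 (53.1), Jarid2 (52.8), Eed (48.3), Rnf2 (36.8), Cbx7 (33.4), Cbx2 (19.2), Ezh1 (10.6), Bmi1 (5.36) and Cbx8 (0.853). The ranges of each pair of neighbours in that order overlapped. In E14 cells the order began with Suz12 (55.98 FPKM) and Ezh2 (54.8) and again ended with Cbx2, Ezh1, Bmi1 and Cbx8. There Rnf2, whose lowest library was at 26.6 FPKM, and Cbx2, whose highest was at 25.1 FPKM, were the only neighbours whose ranges did not overlap.

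**Figure D1:**
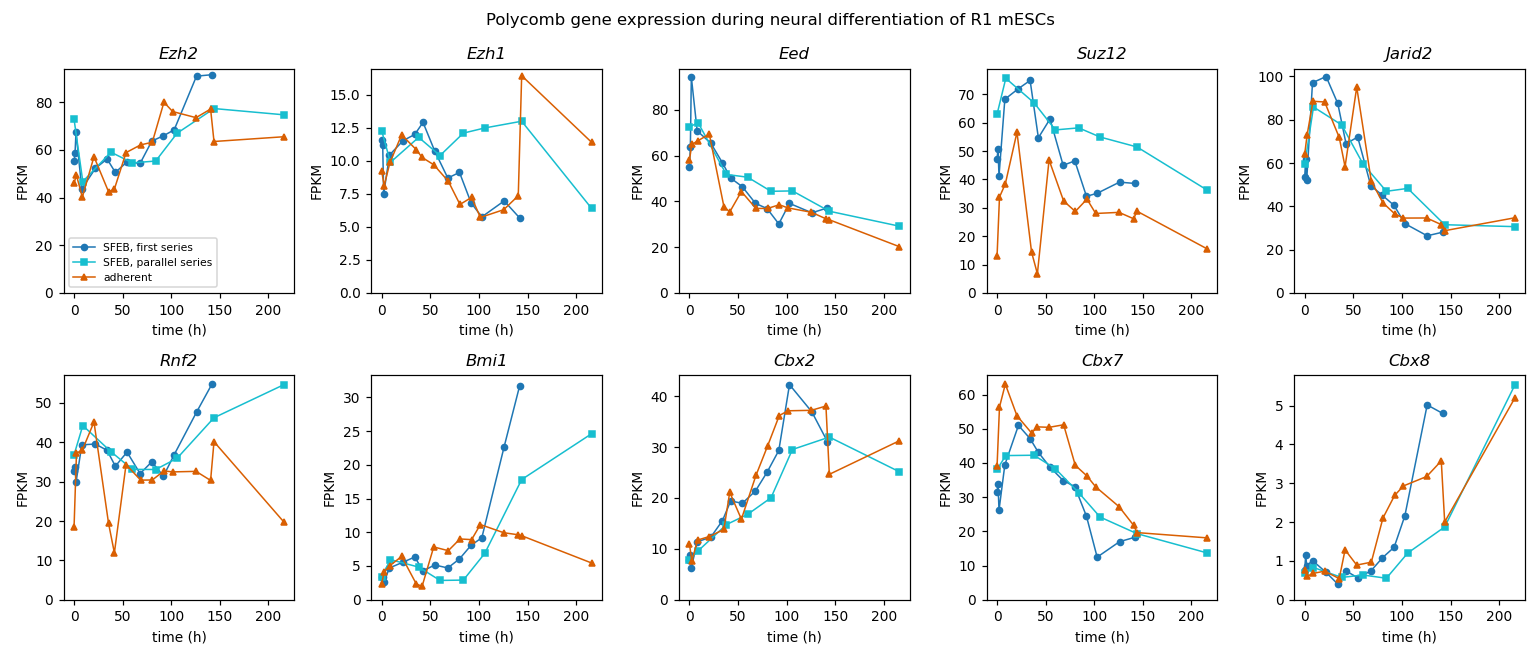
Expression (FPKM, axis from 0) of the 10 Polycomb genes against time in h in SFEB populations of the first series (circles) and parallel series (squares) and in adherent monoculture (triangles), 1 library per point. Cbx2 rises from 7.85 FPKM at 0 h to 42.3 FPKM at 103 h in the first SFEB series while Cbx7 falls from 50.99 FPKM at 22 h to 12.5 FPKM at 103 h, and Suz12 and Rnf2 dip in the adherent libraries at 0, 35.5 and 41.5 h.

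Some libraries stand apart and are named before the results that rest on them. In the adherent libraries at 0, 35.5 and 41.5 h the fifth of transcripts with the lowest GC content deviated by -0.375, -0.522 and -0.7 log2 units (median over transcripts) from their level in the median library. Rnf2, Bmi1 and Suz12 have such transcripts, with 39.1, 40.2 and 41.6% GC against a median of 50.8% over the genes tested, and all 3 were low in these 3 libraries. The adherent library at 216 h deviated in the same way, by -0.218. In the SFEB library at 2 h the fifth with the longest transcripts deviated by -0.382 and the fifth with the shortest by 0.352. In late SFEB libraries the fifth with the longest transcripts deviated upwards, by 0.244 at 142 h, 0.222 at 144 h and 0.381 at 216 h. There the fifth with the lowest GC content deviated by 0.213 at 142 h and 0.11 at 216 h. The methods state that ES cells were passaged once without feeders to remove these cells. Fibroblast markers summed to 993.8 FPKM over 10 genes at 0 h of the parallel series and 952.2 FPKM at 0 h of the first, and to between 14.1 and 111.3 FPKM from 34 h on. In adherent culture the same sum fell from 415.5 FPKM at 0 h to 47.8 FPKM at 216 h. In E14 libraries it was between 0.2825 and 12.05 FPKM. The part of cells carrying these markers in the changes of the 10 genes was not tested. All 7 naive ES cell markers fell and all 7 neural progenitor markers rose in both R1 cultures, whose summed level of progenitor markers reached 897.7 FPKM in SFEB and 469.6 FPKM in adherent culture. Of 6 neuron markers tested, 5 rose in each culture. Of mesoderm and endoderm markers, 3 of 6 tested rose in SFEB and 4 of 4 in adherent culture. Of the E14 libraries, WT day 4 replicates 1 and 2 and KO day 4 replicate 2 each held a gene at 255503, 158601 and 218997 FPKM, where the highest value of the other 9 libraries was between 7751 and 23615 FPKM. In bulk RNA, fewer cells expressing a gene and less RNA per cell cannot be told apart.

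For each gene a straight line of log2(FPKM + 1) against time was fitted with limma, in SFEB with a term for the series, and the slope is given per day with its standard error (SE) and with a p-value adjusted by Benjamini-Hochberg over all genes tested. The fit treats libraries as independent, although those close in time are not. The call rule is an adjusted p below 0.05. Many genes changed with time, since in SFEB populations 35.5% of 13363 genes rose and 27.4% fell by this rule, and in adherent culture 35.8% of 12879 genes rose and 24% fell. Against this background 5 of the 10 Polycomb genes rose and 5 fell in SFEB, and in adherent culture 4 rose, 3 fell and 3 did not pass. Without the 6 SFEB samples up to 9 h, where fibroblast markers were highest, 10 of the 10 slopes were called with unchanged sign, beside 9060 of 12886 genes. The median slope was 0.01 over all genes in SFEB and 0.02 in adherent culture.

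**Figure D2:**
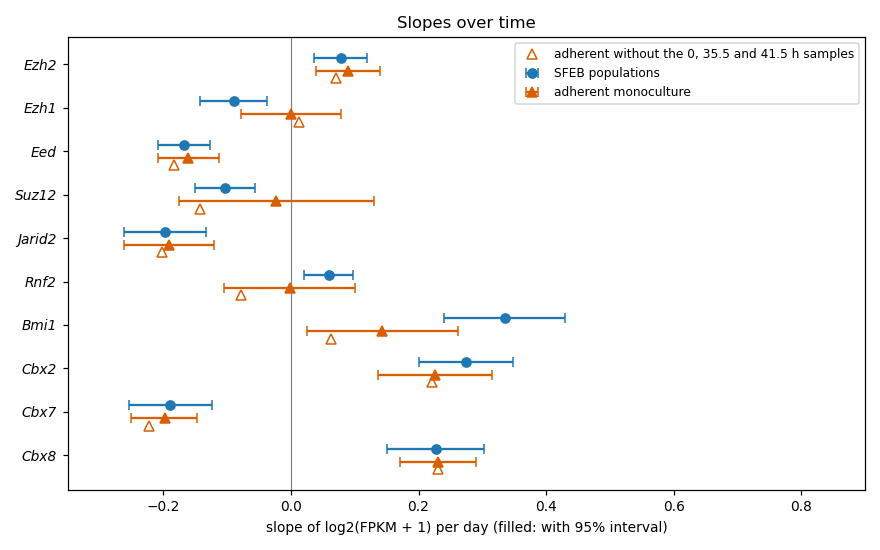
Slope of log2(FPKM + 1) per day for each of the 10 genes in SFEB populations (circles, n = 22) and in adherent monoculture (triangles, n = 15), with 95% intervals, and in adherent culture without the 0, 35.5 and 41.5 h libraries (open triangles, no interval drawn). Both cultures agree in sign for Ezh2, Eed, Jarid2, Bmi1, Cbx2, Cbx7 and Cbx8 with intervals that exclude 0, whereas Suz12 and Rnf2 in adherent culture have the widest intervals that include 0.

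Among the PRC2 enzymes, Ezh2 was the more abundant throughout. In the 6 SFEB populations up to 9 h it lay between 43.6 and 72.9 FPKM with a median of 56.8, and in the 4 populations from 126 h on between 74.7 and 91.6 FPKM with a median of 84.2. The early and late libraries did not overlap. Its slope was 0.078 ± 0.020 (SE) in SFEB (limma, adjusted p = 0.00181) and 0.090 ± 0.024 in adherent culture (adjusted p = 0.00357), where it went from 40.2 FPKM at 8.5 h to 80.0 FPKM at 92.5 h. In the parallel SFEB series alone the slope of 0.049 missed the threshold (adjusted p = 0.152).

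Ezh1, the paralog of Ezh2 with weaker methyltransferase activity, split the SFEB libraries by series. In the first series it fell from 12.9 FPKM at 42.5 h to 5.67 FPKM at 142 h, while in the parallel series it was at 12.5 FPKM at 106 h, 13 FPKM at 144 h and then 6.39 FPKM at 216 h. The late libraries of the 2 series therefore disagree, by 0.998 log2 units between 103 and 106 h and by 1.07 between 142 and 144 h. The slope over all 22 was -0.090 ± 0.025 (adjusted p = 0.00365) but missed the threshold in the parallel series alone (adjusted p = 0.218) and by Spearman's rho (-0.308, permutation test, adjusted p = 0.23). In adherent culture Ezh1 likewise stood at 7.36 FPKM at 140.5 h and at 16.5 FPKM at 144 h, the highest of the 15 libraries. No slope was detectable there (-0.000 ± 0.037, 95% interval -0.078 to 0.078, adjusted p = 0.992), and without the 144 and 216 h libraries it was -0.108 (adjusted p = 0.0094).

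The obligate partners Eed and Suz12 fell in SFEB. Eed, which reads methylated H3 and stimulates the enzyme, lay between 55.1 and 94.4 FPKM up to 9 h and between 29.2 and 37.2 FPKM from 126 h on, without overlap. The slope was -0.168 ± 0.020 (adjusted p = 2.76e-07) in SFEB and -0.161 ± 0.023 (adjusted p = 1.64e-05) in adherent culture, where Eed went from 69.4 FPKM at 20.5 h to 20.2 FPKM at 216 h. Thus Eed and Ezh2, partners in PRC2, changed in opposite directions in both cultures.

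Suz12, the scaffold of PRC2, did not fall steadily. It rose from 47.4 FPKM at 0 h to 74.95 FPKM at 34 h of the first SFEB series and then declined to 34.1 FPKM at 92 h. The highest value of all, 75.7 FPKM, was at 9 h of the parallel series. Early and late libraries overlapped, and the slope was -0.103 ± 0.023 (adjusted p = 0.000485). In adherent culture Suz12 was at 12.99, 14.4 and 6.75 FPKM in the libraries at 0, 35.5 and 41.5 h, against 33.8 FPKM at 2.5 h and 56.7 FPKM at 20.5 h. With these 3 low-GC libraries the slope was -0.023 ± 0.072 (adjusted p = 0.8), and without them, a choice made after seeing the data, it was -0.142 (adjusted p = 0.00067). Leaving out the 216 h library too, where Suz12 was at 15.55 FPKM, it was -0.113 (adjusted p = 0.0132).

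Jarid2 showed the same early peak. In the first SFEB series it went from 53.7 FPKM at 0 h to 97.1 FPKM at 8 h and 99.98 FPKM at 22 h, and then fell to 26.4 FPKM at 126 h. The parallel series held 85.9 FPKM at 9 h and 31.5 FPKM at 144 h. All early libraries, the lowest at 51.9 FPKM, exceeded all late ones, the highest at 31.5 FPKM. The slope was -0.197 ± 0.031 (adjusted p = 1.13e-05) in SFEB and -0.191 ± 0.033 (adjusted p = 0.000113) in adherent culture, where Jarid2 was at 88.5 FPKM at 8.5 h, at 95.1 FPKM at 53.5 h and at 28.7 FPKM at 144 h.

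In PRC1, the catalytic subunit and its PCGF partner rose late in SFEB. Rnf2 lay between 29.8 and 44.3 FPKM up to 9 h and between 46.2 and 54.8 FPKM from 126 h on. The slope was small (0.059 ± 0.018, adjusted p = 0.00831) and missed the threshold without the 216 h library (adjusted p = 0.0626), in the parallel series alone (adjusted p = 0.137) and by Spearman's rho (0.365, permutation test, adjusted p = 0.147). In adherent culture Rnf2 was at 18.4, 19.4 and 11.9 FPKM in the 3 low-GC libraries and at 45.2 FPKM at 20.5 h. The adherent slope was -0.002 ± 0.049 (adjusted p = 0.977) with them and -0.078 (adjusted p = 0.01) without them. The 216 h library, also low in low-GC transcripts and with Rnf2 at 19.72 FPKM, is the latest point of that line, and without it as well the slope was -0.039 (adjusted p = 0.201). The difference between the 2 cultures was not tested, since their tables were made separately.

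Bmi1, the PCGF subunit known for self-renewal of neural stem cells, had the steepest slope of the 10 in SFEB, 0.335 ± 0.046 (adjusted p = 1.69e-06). It stayed between 2.56 and 9.18 FPKM up to 106 h and then reached 22.7 FPKM at 126 h, 31.7 FPKM at 142 h, 17.8 FPKM at 144 h and 24.6 FPKM at 216 h. The 4 late libraries were all above every earlier one. The highest values of Bmi1 and of Rnf2 (54.82 FPKM at 142 h and 54.64 FPKM at 216 h) in SFEB came from the 2 libraries named above for higher long and low-GC transcripts, and the part of this in the rises was not tested. In adherent culture the rise was smaller, from 2.39 FPKM at 0 h to 11.1 FPKM at 101.5 h and 5.44 FPKM at 216 h. Its slope there of 0.143 ± 0.056 (adjusted p = 0.036) missed the threshold without the 3 low-GC libraries (0.063, adjusted p = 0.176) and after quantile normalization (0.080, adjusted p = 0.17), but passed when the 216 h library was left out with those 3 (0.161, adjusted p = 0.00039).

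The CBX proteins decide which canonical PRC1 is assembled, and their RNAs exchanged rank. Cbx7 was between 26.2 and 42.2 FPKM in the early SFEB libraries, peaked at 50.99 FPKM at 22 h and was between 13.7 and 19.3 FPKM in the late ones. Cbx2 went from between 6.25 and 11.4 FPKM to between 25.2 and 36.9 FPKM, with its maximum of 42.3 FPKM at 103 h. Neither gene's early and late libraries overlapped. The slopes were -0.189 ± 0.032 (adjusted p = 2.21e-05) for Cbx7 and 0.274 ± 0.035 (adjusted p = 8.33e-07) for Cbx2 in SFEB. In adherent culture they were -0.198 ± 0.024 (adjusted p = 4.47e-06) and 0.226 ± 0.042 (adjusted p = 0.000239). Cbx7 went there from 63.1 FPKM at 8.5 h to 18.1 FPKM at 216 h and Cbx2 from 7.67 FPKM at 2.5 h to 38.1 FPKM at 140.5 h.

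Cbx8, the neighbour of Cbx2, followed later and at a far lower level. It stayed between 0.403 and 1.35 FPKM up to 92 h in SFEB and then reached 5.02 FPKM at 126 h and 5.52 FPKM at 216 h. At 144 h of the parallel series it was at 1.88 FPKM, against 4.80 FPKM at 142 h of the first. In adherent culture it rose above 2 FPKM at 80.5 h and reached 5.19 FPKM at 216 h. The slopes were 0.227 ± 0.036 (adjusted p = 1.36e-05) and 0.231 ± 0.028 (adjusted p = 4.1e-06). Since 1 is added before the logarithm, these slopes understate the change of so low a gene.

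To set paralogs against each other within each library, 3 ratios of FPKM + 1 were compared with collection time. In all, 12 such relations were computed, over all 22 SFEB populations, in each series and in adherent culture, and p-values were adjusted over them. The permutations treat libraries as exchangeable, though those close in time are not independent, and over all 22 they also mix the series. The log2 ratio of Cbx2 over Cbx7 rose with time in SFEB, with Pearson's r of 0.896 and Spearman's rho of 0.938 (permutation tests, p = 1e-05 each, the smallest that 100000 permutations can give, adjusted p = 3e-05 and 4e-05). It crossed 0, where both are equal, between 80 and 92 h in the first series and between 84 and 106 h in the parallel one. Within the first series r was 0.931 (permutation test, adjusted p = 4.8e-05), and within the parallel series 0.951 (exact permutation test, adjusted p = 4.96e-05). Leaving out the 144 and 216 h samples, which lie farthest from the median time, the pooled r was 0.933. In adherent culture r was 0.925 and rho 0.943 (permutation tests, adjusted p = 3e-05 and 4e-05), and r was 0.964 without its 144 and 216 h samples.

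The ratio of Cbx8 over Cbx7 also rose, with r of 0.812 and rho of 0.594 in SFEB (permutation tests, adjusted p = 3e-05 and 0.00866). Within the first series r was 0.770 and rho 0.499, the latter short of the threshold (permutation test, adjusted p = 0.0855), and r fell to 0.514 (p = 0.0795, permutation test) without the 126 and 142 h samples. The first-series relation therefore rests on its last samples. Within the parallel series r was 0.935 and rho 0.786 (exact permutation tests, adjusted p = 0.00138 and 0.0372). In adherent culture r was 0.947 and rho 0.889 (permutation tests, adjusted p = 3e-05 and 0.000168).

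The ratio of Ezh1 over Ezh2 fell in SFEB, with r of -0.652 and rho of -0.581 (permutation tests, adjusted p = 0.00144 and 0.00879). Within the first series r was -0.798 and rho -0.684 (permutation tests, adjusted p = 0.00135 and 0.0126). Within the parallel series r was -0.757 (exact permutation test, adjusted p = 0.0386) and rho -0.50 (adjusted p = 0.216), and without the 0 and 216 h samples r was -0.752 (exact permutation test, p = 0.0819). In adherent culture the relation missed the threshold, with r of -0.399 and rho of -0.407 (permutation tests, adjusted p = 0.14 and 0.147). Without the 144 and 216 h samples r was -0.855 (permutation test, p = 0.00041), so that the pooled adherent value turns on those 2 libraries, in which Ezh1 was at 16.45 and 11.4 FPKM.

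**Figure D3:**
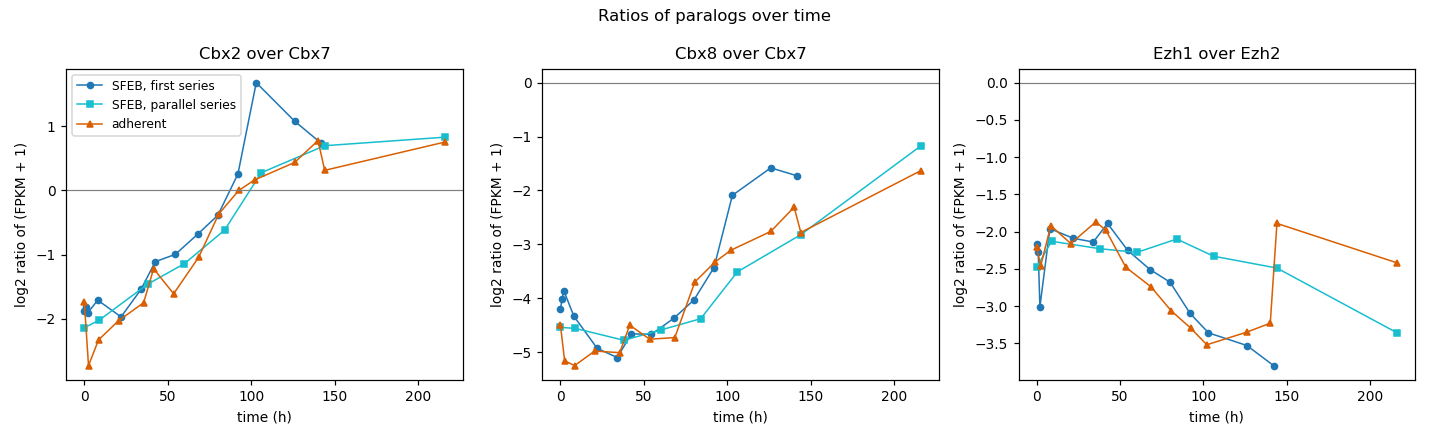
Log2 ratio of FPKM + 1 of Cbx2 over Cbx7, Cbx8 over Cbx7 and Ezh1 over Ezh2 against time in h, for SFEB first series (circles), SFEB parallel series (squares) and adherent culture (triangles), 1 library per point, with a grey line at a ratio of 1. Cbx2 over Cbx7 passes the line in all 3 sets of samples, Cbx8 stays below Cbx7 throughout, and Ezh1 over Ezh2 is higher in the parallel than in the first SFEB series from 84 to 144 h.

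How far libraries taken at nearly the same time differ can be read from 7 pairs of SFEB samples of the first and parallel series, taken at most 6 h apart. Over all genes tested the median absolute difference was 0.171 log2 units. Ezh2 (0.0974), Ezh1 (0.0784) and Cbx7 (0.0934) had smaller medians, as had Eed (0.132), Rnf2, Cbx2, Cbx8 and Jarid2 had between 0.165 and 0.171, and Suz12 (0.316) and Bmi1 (0.373) had larger ones. The largest single differences were 1.07 for Ezh1 at 142 and 144 h, 1.01 for Cbx8 at the same times, 0.998 for Ezh1 at 103 and 106 h and 0.904 for Cbx7 at 103 and 106 h. The SFEB values had been batch-corrected by the authors, so that these differences are what was left after correction.

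The genes whose pattern was most like that of a Polycomb gene were looked up for the 4 members with the steepest SFEB slopes, by Pearson's r of log2(FPKM + 1) over the 22 SFEB populations among all genes tested. These values are descriptions, and libraries close in time are not independent. Nearest to Bmi1 were Tex9 (r = 0.954), Rfx4 (0.952) and Lsm14b (0.951). Nearest to Cbx2 were Epb4.1l5 (0.974), Cand2 (0.973) and Limd1 (0.97). Over the 15 adherent samples r with Cbx2 was between 0.946 and 0.955 for these 3. Nearest to Cbx8 were Sox5 (0.978), Lonrf2 (0.976) and Slc8a3 (0.975), and nearest to Jarid2 were Cdkl2 (0.971), Foxn2 (0.965) and Bnc2 (0.961). In adherent culture the nearest genes of the other 3 members varied more, with r from 0.691 (Lsm14b) to 0.936 (Tex9) for Bmi1, from 0.822 (Sox5) to 0.924 (Lonrf2) for Cbx8 and from 0.728 (Foxn2) to 0.97 (Bnc2) for Jarid2. Among the members themselves the highest r was that of Jarid2 with Cbx7, 0.913, and the lowest that of Eed with Cbx2, -0.888.

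Other genes of the complexes were taken from lists. Of 7 other PRC2 genes none rose and 5 fell in SFEB (Rbbp7, Aebp2, Mtf2, Phf19 and E130012A19Rik), with a median slope of -0.04 beside 0.01 over all genes. The largest change was that of E130012A19Rik, also named Epop, an elongin-binding partner of PRC2 in embryonic stem cells, which went from 58.7 FPKM at 0 h of the first series to 11.7 FPKM at 216 h of the parallel series (slope -0.286 ± 0.0281, adjusted p = 2.06e-08). In adherent culture 1 of the 7 rose (Phf1) and 3 fell (Mtf2, Phf19 and E130012A19Rik), with a median of -0.03.

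Of 21 other PRC1 genes 11 rose and 6 fell in SFEB, with a median slope of 0.06, and 11 rose and 4 fell in adherent culture, again with a median of 0.06. Phc2, a polyhomeotic subunit that polymerises canonical PRC1, had the largest slopes, 0.339 ± 0.0385 in SFEB (adjusted p = 1.5e-07) and 0.334 ± 0.046 in adherent culture (adjusted p = 1.33e-05), and reached 59.3 FPKM in SFEB from a lowest value of 9.16 FPKM. Its paralog Phc1 fell in both. Auts2, a partner of noncanonical PRC1 in neurons, and Yaf2, a subunit of noncanonical PRC1, rose in both, with slopes of 0.304 and 0.265 in SFEB. Of 7 opposing enzymes, which remove or counter the 2 marks, 3 rose and none fell in SFEB (Kdm6b, Bap1 and Mll1), and 2 rose and none fell in adherent culture (Kdm6b and Mll1).

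Genes that PRC2 is known to silence in embryonic stem cells were listed as well. Of 15, 8 were tested in SFEB, and Hoxb1, Pax6, Neurog2, Lhx5 and Foxa2 rose while Cdkn2a fell, with a median slope of 0.34. In adherent culture 10 were tested, and 7 rose while Cdkn2a fell. Of 12 proliferation genes Mki67 rose and 6 fell in SFEB, and none rose and 7 fell in adherent culture, with a median of -0.05 in each. Among the listed genes that encode the replicative helicase, Mcm2, Mcm3, Mcm5 and Mcm6 fell in both cultures, and Mcm4 and Mcm7 were called in neither. The relation of the proliferation genes to the rise of Ezh2 was not tested.

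In E14 cells the targeted gene was looked at first. Fyn, a Src family kinase, was at 3.21, 2.74 and 4.00 FPKM in WT at day 0 and at 0.598, 0.598 and 1.10 FPKM in KO, and at 9.44, 4.54 and 6.76 FPKM in WT at day 4 and 1.19, 1.13 and 1.58 FPKM in KO. KO and WT did not overlap on either day. The deletion removed the start codon, and whether the reads counted for Fyn in KO lie outside it was not tested. The log2 difference was -1.742 ± 0.242 at day 4 (limma, adjusted p = 0.0193) and -1.292 ± 0.242 at day 0 (adjusted p = 0.0601).

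The first E14 question was how the 10 genes changed over 4 days. In WT 15.5% of 12257 genes tested were higher and 10.3% lower at day 4, and none of the 10 was higher and 2 were lower. In KO 11.8% were higher and 7.56% lower, and again none was higher and 2 were lower. Eed was the member called in both. In WT it went from 62.0, 50.8 and 53.2 FPKM at day 0 to 29.5, 29.8 and 30.5 FPKM at day 4, and in KO from 56.8, 57.8 and 66.1 FPKM to 41.3, 31.9 and 29.5 FPKM. Day 4 lay below day 0 in every replicate of both genotypes. The log2 changes were -0.860 ± 0.140 in WT (adjusted p = 0.0018) and -0.809 ± 0.140 in KO (adjusted p = 0.00339). Without the 3 day 4 libraries with an extreme value, which leaves 1 library of WT at day 4 that is assumed to vary like the others, they were -0.835 (adjusted p = 0.0673) and -0.767 (adjusted p = 0.0254).

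Suz12 fell in WT, from 72.9, 90.1 and 111.3 FPKM to 33.5, 58.7 and 53.3 FPKM, a log2 change of -0.919 ± 0.239 (adjusted p = 0.0164). The groups did not overlap, but the call was lost without WT day 0 replicate 2 (adjusted p = 0.0507), without WT day 0 replicate 3 (adjusted p = 0.0671) and without WT day 4 replicate 1 (adjusted p = 0.0586). Without the 3 libraries with an extreme value it was -0.747 (adjusted p = 0.194). In KO Suz12 was at 64.1, 68.0 and 40.7 FPKM at day 0 and at 42.2, 40.9 and 38.5 FPKM at day 4, a change of -0.463 ± 0.239 that missed the threshold (adjusted p = 0.192).

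Ezh2 fell in KO, from 59.0, 48.5 and 54.8 FPKM to 38.7, 31.7 and 34.5 FPKM, a log2 change of -0.615 ± 0.139 (adjusted p = 0.0113), which was lost without KO day 0 replicate 1 (adjusted p = 0.0524) and without the 3 libraries with an extreme value (-0.549, adjusted p = 0.0652). In WT it was at 56.3, 75.9 and 73.7 FPKM at day 0 and at 54.8, 50.1 and 54.8 FPKM at day 4. Those groups did not overlap either, and the change of -0.350 ± 0.139 missed the threshold (adjusted p = 0.0854). In the R1 cultures near day 4, Ezh2 was at 65.9 FPKM at 92 h of the first SFEB series against 55.15 FPKM at 0 h. It was at 66.99 FPKM at 106 h of the parallel series against 72.9 FPKM at 0 h, and at 80 FPKM at 92.5 h of adherent culture against 46.1 FPKM at 0 h. The R1 values near day 4 were thus above 0 h in 2 of these 3 sets of samples, and were not tested against E14, whose table was made separately.

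Neither Cbx7 nor Cbx2 passed the test in E14. Cbx7 was at 38.1, 32.3 and 38.4 FPKM in WT at day 0 and at 26.6, 41.04 and 41.97 FPKM at day 4, a log2 change of -0.014 with a 95% interval of -0.422 to 0.394. Cbx2 was at 13.4, 11.9 and 12.9 FPKM and then at 25.1, 11.1 and 15.6 FPKM (0.341, interval -0.170 to 0.851). In KO the changes were -0.386 (interval -0.794 to 0.022) for Cbx7 and 0.043 (interval -0.467 to 0.554) for Cbx2. Within WT at day 4, replicate 1 alone had Cbx2 and Cbx7 at nearly equal levels, and it also held the highest Phc2 at 39.6 FPKM.

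Cbx8 was low and varied widely between replicates. WT held 2.23, 6.78 and 5.08 FPKM at day 0 and 4.34, 0.752 and 1.07 FPKM at day 4, and KO held 3.79, 4.41 and 0.874 FPKM at day 0 and 0.652, 0.171 and 0.252 FPKM at day 4. In both genotypes day 4 was the lower on average, while in the R1 cultures Cbx8 rose with time. The log2 changes were -0.993 ± 0.495 in WT (adjusted p = 0.161) and -1.442 ± 0.495 in KO (adjusted p = 0.0619), of which that in KO passed with a pseudocount of 0.1 (-2.63, adjusted p = 0.0287) and after quantile normalization (-1.64, adjusted p = 0.04).

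Library KO day 0 replicate 3 stood apart from its group. It held Jarid2 at 105.9 FPKM against 50.4 and 43.8 FPKM, Suz12 at 40.7 FPKM against 64.1 and 68.0 FPKM and Cbx8 at 0.874 FPKM against 3.79 and 4.41 FPKM. Over all genes tested its correlation with the other KO day 0 libraries was 0.946 and 0.931, against 0.981 between those 2. Without it, 4 rather than 2 of the 10 genes were called lower in KO at day 4, Suz12 (-0.691, adjusted p = 0.0477) and Cbx8 (-1.92, adjusted p = 0.0129) being added. The count of all genes called lower rose as well, from 927 to 1206.

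Ezh1 split the day 4 libraries by replicate number. Replicate 1 was at 6.75 FPKM in WT and 7.45 FPKM in KO, and replicates 2 and 3 were at 13.9 and 18.7 FPKM in WT and 16.05 and 17.02 FPKM in KO. At day 0 it lay between 5.31 and 9.97 FPKM in all 6. The log2 changes of 0.622 ± 0.359 in WT (adjusted p = 0.224) and 0.676 ± 0.359 in KO (adjusted p = 0.204) missed the threshold, and so they did with the replicate number as a block (adjusted p = 0.0611 and 0.0544). Jarid2, Rnf2 and Bmi1 changed by -0.156, 0.173 and 0.135 in WT and by 0.011, -0.140 and -0.378 in KO, with adjusted p-values between 0.421 and 0.98.

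**Figure D4:**
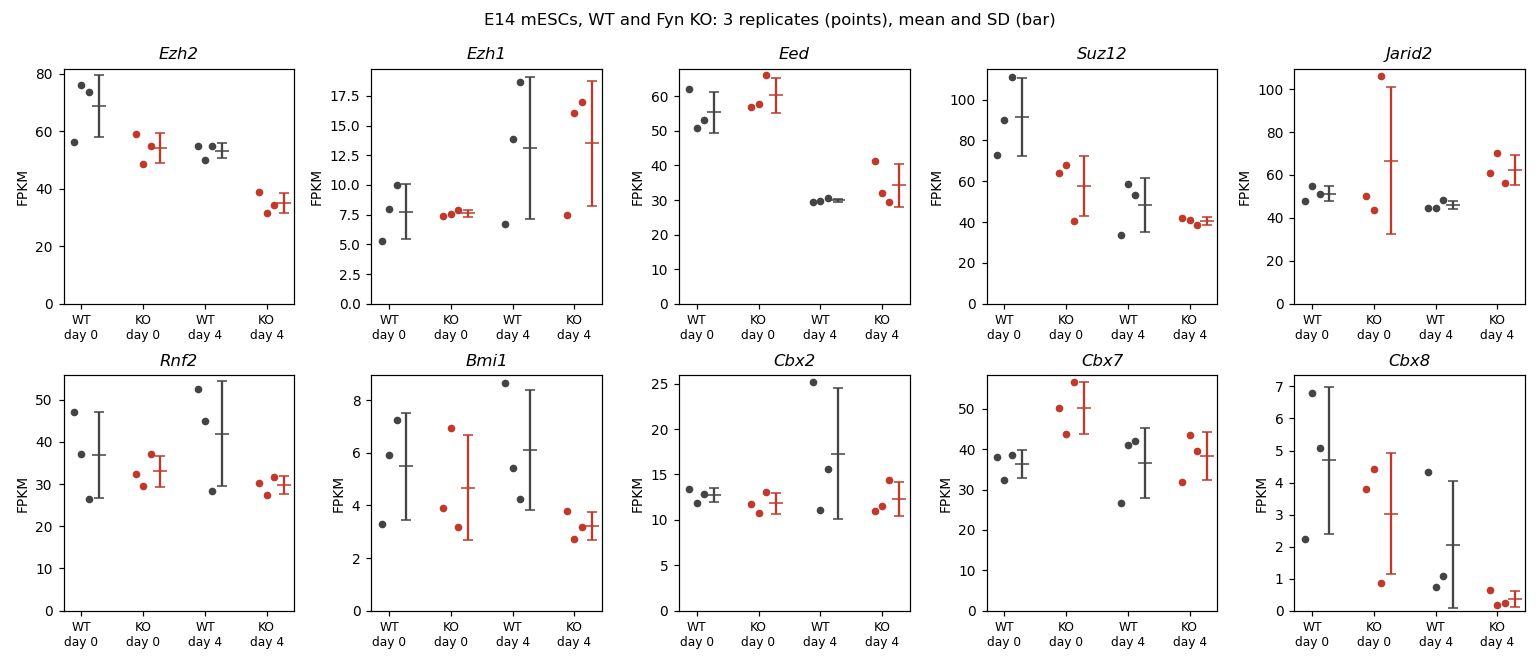
Expression (FPKM, axis from 0) of the 10 genes in E14 WT (grey) and Fyn KO (red) at day 0 and day 4, with 3 replicates as points and the mean with SD as a bar beside them. Eed is lower at day 4 in every replicate of both genotypes, Ezh2 lies between 31.7 and 38.7 FPKM in KO at day 4 and between 50.1 and 54.8 FPKM in WT, and Ezh1 at day 4 separates replicate 1 from replicates 2 and 3.

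The comparison of KO with WT asked whether loss of Fyn moved these genes. At day 4 0.0734% of all genes tested were called and none of the 10. At day 0 0.171% were called and again none of the 10. At an unadjusted p under 0.05, limma found 1483 genes at day 4 and 1785 at day 0. Among the members the largest difference relative to its SE was Ezh2 at day 4, where the KO libraries between 31.7 and 38.7 FPKM lay below the WT libraries between 50.1 and 54.8 FPKM. The log2 difference was -0.595 ± 0.139 (95% interval -0.900 to -0.291, limma adjusted p = 0.123). At day 0 it was -0.330 ± 0.139 (adjusted p = 0.306) and the groups overlapped. Bmi1 at day 4 was at 3.79, 2.71 and 3.18 FPKM in KO and 8.64, 5.43 and 4.24 FPKM in WT (-0.710 ± 0.313, adjusted p = 0.395), also without overlap. Cbx8 at day 4 (0.652, 0.171 and 0.252 FPKM in KO, 4.34, 0.752 and 1.07 FPKM in WT, 95% interval of the log2 difference -2.08 to 0.08, adjusted p = 0.452) and Suz12 at day 0 (-0.671 ± 0.239, adjusted p = 0.226) were likewise lower in every KO library than in any WT library. Other members were separated the other way, with Jarid2 at day 4 at 60.7, 70.2 and 56.3 FPKM in KO and 44.8, 44.8 and 48.15 FPKM in WT (0.429 ± 0.253, adjusted p = 0.528), and Cbx7 at day 0 between 43.86 and 56.75 FPKM in KO and between 32.34 and 38.44 FPKM in WT (0.456 ± 0.187, adjusted p = 0.292). Full separation of 3 against 3 libraries in either direction has an exact permutation p of 0.1. How many of all genes were separated in this way was not counted. The 10 members summed to between 286.7 and 300.4 FPKM in WT at day 4 and between 264.8 and 276.2 FPKM in KO, while at day 0 their sums overlapped. Beside these differences, the summed level of 7 neural progenitor markers at day 4 lay between 15.35 and 151.3 FPKM in WT and between 5.185 and 21.17 FPKM in KO. Other summed levels did not overlap at day 4, that of 15 classic Polycomb targets lying between 53.87 and 61.04 FPKM in WT and between 12.25 and 30.01 FPKM in KO, and that of 12 proliferation genes between 1430 and 1572 FPKM in WT and between 1210 and 1303 FPKM in KO. At day 0 the targets summed to between 30.76 and 33.09 FPKM in WT and between 16.53 and 23.41 FPKM in KO. Also at day 0, 7 neuron markers summed to between 24.37 and 86.37 FPKM in WT and between 121.2 and 206.2 FPKM in KO, and the 7 other PRC2 genes to between 458.3 and 484 FPKM in WT and between 399.7 and 449.4 FPKM in KO. Of the neuron markers, Stmn2 reached 167.5 FPKM over the E14 libraries and Tubb3 45.71 FPKM, and the others at most 4.583 FPKM. None of the 4 neuron markers tested was called at day 0, with a median log2 difference of 0.35 (range 0.05 to 2.28). The part of these levels in the differences of the members was not tested. None of the 7 other PRC2 genes, the 21 other PRC1 genes and the 7 opposing enzymes was called on either day.

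A test of the difference itself called no member for a change over 4 days that differed between genotypes. Of 12257 genes 0% were called, and 537 had an unadjusted p under 0.05, none of them a member. The differences ranged from -0.513 ± 0.442 for Bmi1 to 0.456 ± 0.338 for Suz12, and for Eed the difference was 0.051 with a 95% interval of -0.380 to 0.483. The wider intervals do not exclude differences of the size of the changes themselves.

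The 3 paralog ratios were compared between E14 groups in 12 exact permutation tests of 3 against 3, two-sided, which cannot give a p below 0.10. The log2 ratio of Ezh1 over Ezh2 was -3.01 ± 0.219 (SD, n = 3) in WT at day 0 and -2.04 ± 0.709 at day 4, and -2.68 ± 0.160 and -1.38 ± 0.736 in KO (exact p = 0.2 and 0.1, adjusted p = 0.36 each). Cbx2 over Cbx7 was -1.99 ± 0.055 in KO and -1.44 ± 0.0687 in WT at day 0 without overlap (exact p = 0.1, adjusted p = 0.36), and -1.56 ± 0.239 and -1.08 ± 0.897 at day 4. From day 0 to day 4 it changed by 0.429 in KO, also without overlap (exact p = 0.1, adjusted p = 0.36). In WT it changed by 0.355 (exact p = 0.7, adjusted p = 0.7). Cbx8 over Cbx7 ranged from -2.80 ± 0.754 in WT at day 0 to -4.86 ± 0.486 in KO at day 4.

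In other Polycomb genes the E14 cells gave changes of their own. In WT 2 of the 7 other PRC2 genes fell at day 4, Mtf2 and E130012A19Rik, the latter from 166.9, 153.9 and 127.9 FPKM to 41.4, 29.4 and 42.1 FPKM (-1.97 ± 0.26, adjusted p = 0.000564). Of 21 other PRC1 genes Yaf2 (0.976 ± 0.228, adjusted p = 0.0104) and Auts2 (1.55 ± 0.251, adjusted p = 0.0018) rose, and Pcgf2 and L3mbtl2 were among those that fell. The falls of E130012A19Rik and Mtf2 and the rises of Auts2 and Yaf2 had the same direction as in both R1 cultures. Of the 7 opposing enzymes none was called. Of the Polycomb targets tested, Pax6 and Foxa2 rose in WT and none rose in KO, a difference between genotypes that was not called (median of 6 genes -0.98, none called).

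In SFEB single cells Ezh2 and Jarid2 were above 0 in 64 of 64 cells, Cbx7 in 63, Cbx2 in 62, Suz12 in 61, Eed in 60, Rnf2 in 59, Ezh1 in 56 and Bmi1 in 27. Values were quantile-normalized between cells by the authors, so that many of those above 0 are far below 1 RPKM and need not stand for a read. The median over all cells was 1.4 for Jarid2 and 1.19 for Ezh2 on the scale of log10(RPKM + 1), 1.01 for Cbx7, 0.58 for Cbx2, 0.0452 for Ezh1 and 0 for Bmi1.

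**Figure D5:**
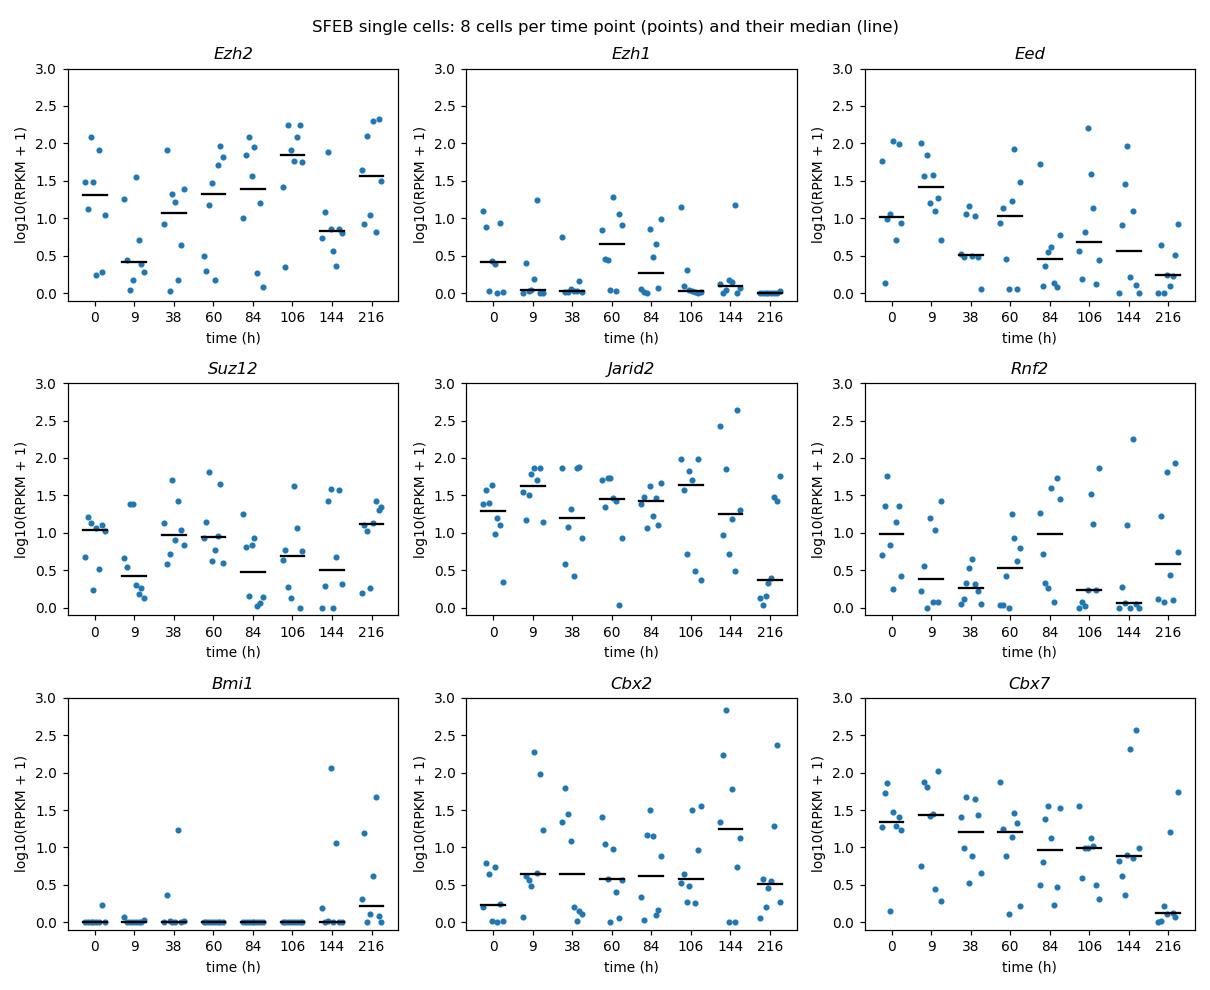
Expression as log10(RPKM + 1) of 9 Polycomb genes in SFEB single cells at 8 times in h, 8 cells per time as points and their median as a line. Ezh2 at 0 h spans 0.235 to 2.08 between cells, Bmi1 has a median of 0.211 at 216 h, and the Cbx7 median goes from 1.34 at 0 h to 0.119 at 216 h.

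Cells collected together count as 1 sample, and the log10 of their mean RPKM + 1 was correlated with time, with an exact permutation test over all orders of the 8 times. Of 11449 genes 0% were called after adjustment, and 1534 had an unadjusted p under 0.05. None of the 9 members was called. Neither were the 7 naive ES cell markers (median Pearson's r of -0.79) or the 5 neural progenitor markers of these cells (median 0.83). The lack of calls therefore tells little about the members. Pearson's r was 0.704 for Bmi1 (exact p = 0.0533), -0.654 for Eed (exact p = 0.0765), -0.615 for Ezh1 (exact p = 0.103), 0.542 for Rnf2, 0.520 for Cbx2, 0.506 for Ezh2, -0.323 for Cbx7, 0.226 for Suz12 and -0.034 for Jarid2. Adjusted p-values lay between 0.381 and 0.977. Apart from Suz12 these signs are those of the SFEB populations, with Jarid2 close to 0.

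Bmi1 was above 0 in 3, 2, 6, 4, 1, 0, 5 and 6 of 8 cells at 0, 9, 38, 60, 84, 106, 144 and 216 h. Its mean was 15.8 RPKM at 144 h and 8.13 RPKM at 216 h, against at most 2.17 RPKM at the 6 earlier times. At 144 h the mean rests on few cells, with a median of 0.00988 and a highest value of 2.06 on the log10 scale. Eed had a mean of 36.4 RPKM at 0 h and 36.5 RPKM at 9 h and of 1.82 RPKM at 216 h, the lowest of the 8.

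Cbx2 and Cbx7 were above 0 together in 61 of 64 cells, Cbx7 without Cbx2 in 2 and Cbx2 without Cbx7 in 1. The level of Cbx2 exceeded that of Cbx7 in 0 of 8 cells at 0 h, in between 1 and 3 of 8 from 9 to 84 h, in 4 at 106 and 144 h and in 5 at 216 h. Of the cells at 216 h, the paper describes cell 16 as an outlier that stayed in the original stage. This cell held Cbx7 at 1.74, Jarid2 at 1.76 and Suz12 at 1.34 with Bmi1 at 0, where the group medians were 0.119 for Cbx7, 0.365 for Jarid2 and 1.12 for Suz12. Its Ezh2 (1.5) and Rnf2 (0.744) lay near the medians of 1.57 and 0.589. Cell 12 also held Suz12 at 1.42 and Jarid2 at 1.48, and Bmi1 was also 0 in cell 04. Without cell 16 again no gene was called.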

How the data were processed

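Gene tables of RNA sequencing were analysed as deposited. FPKM values were made by the authors with TopHat2 (2.0.8b) and Cufflinks (2.1.1) per the submitters' processing notes, which name mm9 and mm10. The paper's methods name other versions of these tools and mm9 alone. The SFEB population FPKM were batch-corrected by the authors with ComBat before deposit, and 1256 values below 0 were set to 0 here. Single cells were deposited as log10(RPKM + 1) after quantile normalization by the authors. Read depth was not given in these tables, so no counting interval was computed, and the number of samples limits the precision. No column of values was left without a sample (0 unmatched).

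Genes with at least 1 FPKM in at least 3 samples were tested on log2(FPKM + 1), pseudocount 1, with limma 3.58.1 (R 4.3.3, trended empirical Bayes, two-sided) and Benjamini-Hochberg adjustment over all genes tested, threshold 0.05. A fold change on this scale understates the change of low genes. The 4 E14 groups entered 1 model. Single values were compared with permutation tests (scipy 1.17.1). The fits were also run on simulated data with known changes, and the outcome is not given here. Named were all 10 members, Fyn, up to 4 other Polycomb genes per comparison with the largest change among those past the threshold, and 3 genes most alike to each of the 4 members with the steepest SFEB slopes. A gene that this rule names is not reported here. Phc2 in E14 and other genes standing in list counts were named after their values were seen. The members and lists were chosen with earlier results of these data known.

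Whether replicate numbers pair the E14 samples was checked by the correlation of same-numbered deviations from the group means. It was 0.199, 0.22 and 0.224 between WT days and 0.136, 0.258 and 0.24 between genotypes at day 4, which meets the rule of every pair above 0.1. Between KO days and between genotypes at day 0 it did not. Alternatives were another pseudocount, other filters, quantile normalization, the replicate block, fits of 2 groups, series alone and samples left out. Leaving out the 2 h SFEB sample or those up to 9 h, the 0, 35.5 and 41.5 h (also with 216 h) or the 144 and 216 h adherent samples, or the 3 E14 samples with a value above 100000 FPKM was chosen after seeing the data.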

Additional observations from a re-analysis of the deposited data

Results flagged for a closer look

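Among 72 groups of 8 single cells, 1 per gene and time, 11 held a cell whose gap to its nearest neighbour was large beside the range of the group (Dixon's ratio). Chance flags about 1 in 20 groups of normally distributed values, and many of these groups hold several cells at or near 0, so the 11 of 72 cannot be set against that rate. Values below are log10(RPKM + 1), each cell beside the next one.

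Ezh1 was flagged at 5 times, each with 1 high cell. The values were 1.24 beside 0.405 at 9 h (ratio 0.673), 0.754 beside 0.161 at 38 h (0.805), 1.15 beside 0.312 at 106 h (0.727), 1.18 beside 0.179 at 144 h (0.849) and 0.0249 beside 0.00741 at 216 h (0.703). Bmi1 was flagged at 3 times. It was at 0.234 beside 0.00648 at 0 h (0.972), at 1.23 beside 0.369 at 38 h (0.7) and at 0.00286 beside 0 at 84 h (1.0). Eed was at 1.72 beside 0.773 in a cell at 84 h (0.578). A cell was low for Ezh2 at 106 h, 0.353 beside 1.42 (0.562), and another for Cbx7 at 0 h, 0.153 beside 1.23 (0.631).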

How the results depend on the processing

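Of 929 values of single members under alternatives, 904 kept their direction and side of the threshold or were uncalled under both settings, 15 lost a call, 10 gained one and none that was called changed sign. Among those uncalled under both, 53 had the other sign. With 1 replicate left out at a time, between 1 and 3 members were called at day 4 in WT and between 1 and 4 in KO. In WT, the Ezh2 change passed without WT day 0 replicate 1 (adjusted p = 0.0257, limma) and that of Cbx8 without WT day 4 replicate 1 (adjusted p = 0.0491). Without the 3 day 4 samples with a value above 100000 FPKM, 0 members were called in WT, where 1 day 4 sample was left, and 1 in KO, and the count of all genes was 673 in WT and 0 for KO against WT at day 4. With the replicate number as a block, 2 members were called in WT, 2 in KO, and 0 in each other E14 comparison, and no member's call changed. The block raised the count of all genes from 21 to 38 for KO against WT at day 0 and from 0 to 2 for the difference between genotypes. That count at day 0 was 35 with no filter, 2 with the 2 groups alone and between 4 and 128 with 1 replicate left out, the highest without WT day 0 replicate 1. At day 4 it was 9, against 24 with no filter, 17 with 1 FPKM asked in all 12 samples, 17 after quantile normalization, 5 with the 2 groups alone and between 5 and 14 with 1 replicate left out. For the difference between genotypes it was 1 with no filter and at most 4 with 1 replicate left out. With the stricter filter 1988 genes were called over 4 days in WT, against 3166, and 1420 in KO, against 2370, and with 1 replicate left out the lowest counts were 1831 in WT (without WT day 0 replicate 2) and 1041 in KO (without KO day 0 replicate 2). The parallel SFEB series alone, of 8 samples, gave 5483 called genes, against 8415. Apart from that series, where there are fewer samples, and the stricter filter, where fewer genes were tested, the cause was not tested. Single libraries per R1 time point and 3 per E14 group limit the precision.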
